A study of Homo sapiens with 63 samples.

Results

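Gene expression in HEK293T cells given the probe form of ibufenac was set against that in cells given its photocaged form, with both sampled at 12 h. Ibufenac is an anti-inflammatory drug of the ibuprofen class that was withdrawn because of liver injury, and HEK293T is an established human embryonic kidney cell line. The cells expressed Halo, a protein tag that binds its ligands covalently. Per the design text, the cells were given a precursor of the drug's acyl glucuronide (AG) at 10 µM for 2 h: Ht-Pre-AG-ibufenac, or in other groups Ht-Pre-AG-ibuprofen. Unbound precursor was washed out, and light of 365 nm at 5 mW/cm2 for 3 min freed the AG. The ibufenac probe and ibufenac photocaged groups at 12 h have 3 libraries each, 6 of the 63 libraries of the study. A further 3 DMSO libraries at 12 h give the vehicle level. How the forms differ in treatment, which of them was illuminated, and whether libraries come from separate cultures are not stated in the labels. The p-values therefore measure a spread between libraries, which may be technical. This spread was pooled over all 63 libraries, among them groups labelled bolus for both drugs. It is not the spread of the probe and photocaged groups alone. All 58336 genes of the table were considered, and 19352 of them passed the filter on low counts and were tested.

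An acyl glucuronide is the conjugate that the liver makes from a carboxylic acid drug to excrete it, and it can react with proteins. Reactive compounds and misfolded proteins are sensed by several stress pathways. ATF4, a transcription factor made when the translation factor eIF2 is phosphorylated, drives genes of amino acid synthesis, amino acid transport and tRNA charging. NRF2 drives antioxidant and detoxifying genes once the thiols of its inhibitor KEAP1 are modified, HSF1 drives chaperones of the cytosol, and the unfolded protein response drives chaperones and degradation factors of the endoplasmic reticulum (ER).

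The 6 libraries hold 16.0 M to 21.5 M counts. The probe libraries gave 575 to 628 CPM (counts per M counts, scaled with TMM factors) summed over 8 HEK293T markers. The photocaged libraries gave 552 to 587 CPM and the DMSO libraries 492 to 522 CPM. Most of each sum was VIM, at 457, 499 and 512 CPM in the probe libraries and 416, 420 and 446 CPM in the photocaged libraries. Between these groups 3 of the 8 markers had a positive log2 fold change and 5 a negative one. KRT18 was at 42.1, 43.6 and 43.5 CPM in the probe libraries and 51.4, 51.3 and 51.5 CPM in the photocaged libraries. The kidney factor PAX2 was at or near 0, with 0.77 CPM at most. Marker sums of hepatocytes, blood cells and endothelium were at most 4.46 CPM in any of the 9 libraries. The log2 CPM values of probe replicate 3 correlated with those of its own group at a mean Pearson r of 0.960 across genes, the 4th lowest of the 63 libraries. The same mean was 0.968 for probe replicate 1, 0.966 for probe replicate 2 and 0.982 to 0.984 for the photocaged libraries. Probe replicate 3 correlated with single photocaged libraries at 0.962 to 0.965, and with the other probe libraries at 0.962 and 0.957. The libraries also differ in composition. Transcripts of the mitochondrial genome took 0.543%, 0.371% and 0.297% of the counts in the probe libraries, 0.241%, 0.246% and 0.246% in the photocaged libraries, and 0.296%, 0.360% and 0.268% in the DMSO libraries. The deviation of a library from the gene means correlated with the GC content of genes at r of -0.16, -0.26 and 0.07 across genes in the probe libraries, 0.24, 0.15 and 0.13 in the photocaged libraries, and 0.11, -0.11 and -0.13 in the DMSO libraries. The part of these differences in the results was not tested except where a fit with GC and length trends removed is named.

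At 12 h, 373 genes (1.93% of those tested) differed between the forms at an adjusted p under 0.05 in edgeR's quasi-likelihood test with Benjamini-Hochberg adjustment. With the probe 175 genes (0.904%) were higher and 198 (1.02%) were lower than with the photocaged form. The changes were small: 110 of the 373 genes passed a 1.5-fold change and 35 passed a 2-fold change, and the median log2 fold change of all tested genes was -0.01. The split between higher and lower genes differed between settings, with 260 higher and 166 lower genes under RLE factors, 330 and 217 with GC and length trends removed, and 539 and 381 in DESeq2. The genes that were higher had a median GC content of 45.1% and a median length of 5662 bases, those that were lower 55.0% and 2432 bases, and all tested genes 48.3% and 3043 bases. With the GC and length trends removed, 290 of the 373 genes kept their call. With the 6 libraries fitted alone, 85 kept it.

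The count rested heavily on single libraries. It was 119 without probe replicate 1, 140 without probe replicate 2 and 872 without probe replicate 3. It was 44 without photocaged replicate 1, 223 without photocaged replicate 2 and 60 without photocaged replicate 3. All 373 genes kept their sign when each of these libraries was left out. They were chosen in these same libraries, so a kept sign is little support. Of the 373, 25 genes, 10 higher and 15 lower, passed the threshold every time. Among those 25, chosen after their values were seen, the higher genes included ASNS, EDEM1, TAF1, GLG1 and OGT, and the lower genes included HMOX1, DNAJA1, PRDX1, TFRC, KIF20A, PIMREG, CCNB1, CCT4 and PSMD1.

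**Figure D1:**
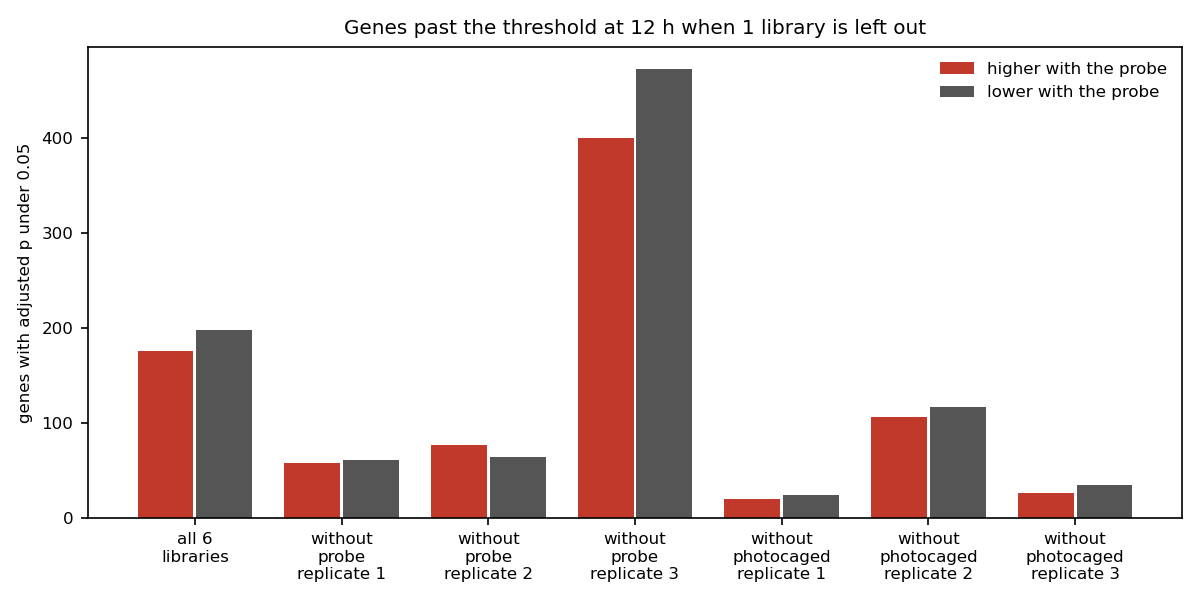
Genes with an adjusted p under 0.05 at 12 h, on the vertical axis, for all 6 libraries and with each library left out in turn; red bars are genes higher with the ibufenac probe and grey bars genes lower. The bars run from 20 higher and 24 lower genes without photocaged replicate 1 to 400 higher and 472 lower genes without probe replicate 3.

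Several ATF4-driven genes of amino acid synthesis, amino acid transport and tRNA charging were higher with the probe. Of all tested genes 0.904% rose and 1.02% fell. In the list of ATF4-driven synthesis genes 5 of 14 tested members rose and none fell, with a median log2 fold change of 0.14; 1 member had an unadjusted p under 0.05 in the lower direction, and DESeq2 called none lower. In the transport list 4 of 12 members rose and none fell, with a median of 0.11, and among cytosolic tRNA synthetases and partners 6 of 19 rose and none fell, with a median of 0.17. In each of these 2 lists 1 member had an unadjusted p under 0.05 in the lower direction, and DESeq2 called none lower. Of the regulators and secreted factors that mark acute ATF4 activity, 1 of 20 rose and none fell, neither in DESeq2 nor at an unadjusted p under 0.05, with a median of 0.08.

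ASNS, asparagine synthetase, lies on chromosome 7 (GENCODE gene body 97852118 to 97872542 on the minus strand, GRCh38) and was measured at 279, 254 and 235 CPM in the probe libraries, 172, 170 and 180 CPM in the photocaged libraries, and 105, 118 and 113 CPM in the DMSO libraries. The 3 groups do not overlap, and the probe libraries are the highest. Over all tested genes, the probe libraries lay above all photocaged ones for 10.3% and below them for 13.4%. The log2 fold change of probe over photocaged was 0.56 ± 0.07 (SE; adjusted p = 4.16e-06), and it stayed between 0.49 and 0.61 when each library was left out. Relative to DMSO, 872 genes (4.51%) differed with the probe, 1.83% of all tested genes being higher and 2.67% lower, and 306 (1.58%) with the photocaged form, 0.475% higher and 1.11% lower. ASNS rose by 1.19 on the log2 scale with the probe (adjusted p = 7.75e-18) and by 0.63 with the photocaged form (adjusted p = 1.24e-07); these comparisons share the DMSO libraries. MTHFD2, an enzyme of mitochondrial folate metabolism, was at 251, 283 and 300 CPM in the probe libraries, 213, 222 and 227 CPM in the photocaged libraries, and 164, 164 and 181 CPM in the DMSO libraries. It keeps the same order of groups without overlap. Its log2 fold change was 0.33 ± 0.07 (adjusted p = 0.00612), and the call ended without photocaged replicate 1. It ran from 0.28 to 0.40 over the 6 omissions. PSAT1, an enzyme of serine synthesis, was at 180, 146 and 147 CPM in the probe libraries and 118, 126 and 127 CPM in the photocaged libraries. The lowest probe library is above the highest photocaged one, and the log2 fold change was 0.35 ± 0.09 (adjusted p = 0.0331). The PSAT1 call ended without probe replicate 1 and without any of the photocaged replicates, with values of 0.25 to 0.41 over the 6 omissions. The synthesis list had 1 call without photocaged replicate 1, 2 without photocaged replicate 2, 2 without photocaged replicate 3, 2 without probe replicate 1, 3 without probe replicate 2 and 5 without probe replicate 3.

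The transport genes that rose were SLC7A11, SLC1A4, SLC38A1 and SLC7A1. SLC7A11, the cystine importer that feeds glutathione synthesis and is also an NRF2 target, was at 153, 148 and 122 CPM in the probe libraries, 100, 114 and 101 CPM in the photocaged libraries, and 72.8, 90.9 and 88.4 CPM in the DMSO libraries. All probe libraries are above all photocaged ones, with a log2 fold change of 0.43 ± 0.10 (adjusted p = 0.0122). SLC1A4, a carrier of neutral amino acids, changed by 0.38 ± 0.08 (adjusted p = 0.0115) and SLC38A1, a glutamine carrier, by 0.27 ± 0.06 (adjusted p = 0.00933). Among the tRNA synthetases, SARS1 for serine was at 306, 360 and 340 CPM in the probe libraries and 258, 272 and 282 CPM in the photocaged libraries, 0.31 ± 0.07 on the log2 scale (adjusted p = 0.00933). YARS1 for tyrosine was at 408, 382 and 394 CPM in the probe libraries and 336, 344 and 333 CPM in the photocaged libraries, 0.22 ± 0.05 (adjusted p = 0.0192). Neither gene overlaps between the groups. All probe libraries lay above all photocaged ones for 10.3% of all tested genes. Leaving out photocaged replicate 1 ended all 5 of these calls, with values between 0.20 for YARS1 and 0.52 for SLC7A11 over the 6 omissions. Photocaged replicate 3 and probe replicate 1 also ended those of SLC7A11 and YARS1, and probe replicate 2 those of SLC7A11 and SARS1. The SLC1A4 call ended without probe replicate 3 or photocaged replicate 3 too, and the SLC38A1 call without probe replicate 1. Without photocaged replicate 1 no member of the transport or synthetase lists was called in edgeR. The transport list had 1 call without probe replicate 1 or photocaged replicate 3 and 3 without any other library. The synthetase list had 3 calls without probe replicate 1, 1 without probe replicate 2, 6 without probe replicate 3, 4 without photocaged replicate 2 and 2 without photocaged replicate 3.

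CEBPG, the partner with which ATF4 binds DNA, was at 138, 138 and 133 CPM in the probe libraries, 109, 113 and 110 CPM in the photocaged libraries, and 95.3, 102 and 108 CPM in the DMSO libraries. The probe and photocaged libraries do not overlap, and the log2 fold change was 0.30 ± 0.07 (adjusted p = 0.0108), a call that ended without photocaged replicate 1 or replicate 3, with 0.29 to 0.32 over the 6 omissions. ATF4 mRNA gave 0.09 ± 0.06 (adjusted p = 0.413; 95% interval -0.02 to 0.20). TRIB3, a pseudokinase that ATF4 induces and that dampens it, was at 47.3, 50.5 and 53.3 CPM in the probe libraries, 46.2, 43.3 and 40.5 CPM in the photocaged libraries, and 29.5, 26.3 and 27.7 CPM in the DMSO libraries, 0.22 ± 0.09 (adjusted p = 0.191). With GC and length trends removed, TRIB3 passed the threshold at 0.51 (adjusted p = 0.00407), and the regulator list had a median of 0.25 with 2 calls. DDIT3, the stress factor CHOP, gave -0.11 ± 0.12 (adjusted p = 0.683) and GDF15, a secreted stress hormone, -0.25 ± 0.27 (adjusted p = 0.685).

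The promoters of ASNS, DNAJA1 and HSPA8 are shown because these genes stand for the ATF4-driven genes that were higher and the HSF1-driven chaperones that were lower, and because each holds the letters of its pathway's element. The sequences are RefSeq's and run 5′ to 3′ on the gene's strand from 250 bases before the gene's start to 50 bases after it (GRCh38.p14), with the element in capitals. The joint ATF4 and C/EBP element was searched as TGATGNAA. The heat shock element was searched as GAA, TTC and GAA with 2 bases of any kind between neighbours. Both strands were searched.
ASNS, chr7:97872359-97872658, minus strand: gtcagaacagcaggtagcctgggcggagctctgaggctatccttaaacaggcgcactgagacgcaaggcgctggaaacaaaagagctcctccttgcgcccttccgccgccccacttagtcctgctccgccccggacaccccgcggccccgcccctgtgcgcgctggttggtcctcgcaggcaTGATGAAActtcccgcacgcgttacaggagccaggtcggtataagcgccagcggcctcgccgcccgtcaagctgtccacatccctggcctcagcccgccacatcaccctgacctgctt
DNAJA1, chr9:33025023-33025322, plus strand: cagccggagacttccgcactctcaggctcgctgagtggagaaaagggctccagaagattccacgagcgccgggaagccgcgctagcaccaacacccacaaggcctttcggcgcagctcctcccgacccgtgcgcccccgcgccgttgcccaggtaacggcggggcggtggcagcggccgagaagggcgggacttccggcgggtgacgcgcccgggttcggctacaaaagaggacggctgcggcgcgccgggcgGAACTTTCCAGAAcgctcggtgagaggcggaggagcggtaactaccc
HSPA8, chr11:123062087-123062386, minus strand: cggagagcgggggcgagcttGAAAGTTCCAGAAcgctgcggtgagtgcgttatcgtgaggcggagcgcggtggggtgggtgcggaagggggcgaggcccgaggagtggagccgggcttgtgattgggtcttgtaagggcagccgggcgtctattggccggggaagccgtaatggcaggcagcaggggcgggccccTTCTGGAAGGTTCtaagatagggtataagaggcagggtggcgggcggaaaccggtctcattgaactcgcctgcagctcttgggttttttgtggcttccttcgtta

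The element in the ASNS promoter begins 68 bases before the start, and those in the HSPA8 promoter begin 230 and 55 bases before it, the second on the opposite strand. The DNAJA1 element begins 3 bases after the start. These starts are RefSeq's. For ASNS and DNAJA1 they lie inside the GENCODE gene bodies given here, as do the elements of both genes. The RefSeq table holds a promoter for 9 of the 14 synthesis genes, of which 2, ASNS and MTHFD1L, contain TGATGNAA. It holds one for 10 of the 12 transport genes. Of these 3 contain the element: SLC38A1 and SLC7A1, which rose, and SLC3A2, which did not pass the test. RefSeq has a promoter for 15 of the 19 tRNA synthetase genes, of which 6 contain the element. They are AARS1 and IARS1, which rose, and CARS1, MARS1, NARS1 and TARS1, which did not pass the test. The same letters occur in 3.67% of all promoters in the table and in 1.71% of those of tested genes. The heat shock element occurs in 6 of the 26 promoters found for the HSF1 list and in 0.487% of all promoters. DNAJA1, HSPA8 and DNAJB6 are the members with it that fell, while CHORDC1, HSPA6 and SERPINH1 have it and did not pass the test. HSPA1B, HSPE1 and STIP1, which fell, have no match. A match to these letters is a description of the sequence and not a binding site.

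Of the unfolded protein response genes of the ER, 2 of 29 rose and none fell, with a median log2 fold change of 0.01. In the lower direction DESeq2 called 1 and 4 passed an unadjusted p of 0.05. Counting both directions, DESeq2 called 4.75% of all tested genes and 18.1% passed an unadjusted p of 0.05. Among all tested genes 0.904% rose, and all probe libraries lay above all photocaged ones for 10.3%. EDEM1, which sorts misfolded glycoproteins for degradation, was at 97.9, 78.1 and 86.2 CPM in the probe libraries, 63.1, 65.3 and 62.1 CPM in the photocaged libraries, and 67.4, 65.9 and 74.0 CPM in the DMSO libraries. The probe libraries are above all others, and the log2 fold change was 0.46 ± 0.09 (adjusted p = 0.00368), between 0.37 and 0.54 over the omissions of 1 library. CREB3L2, a transcription factor anchored in the ER membrane, was at 106, 82.1 and 63.9 CPM in the probe libraries and 53.0, 54.6 and 53.9 CPM in the photocaged libraries, 0.64 ± 0.14 (adjusted p = 0.00933). Its values spread widely within the probe group, and the call ended without probe replicate 1, photocaged replicate 1 or photocaged replicate 3, with 0.44 to 0.80 over the omissions; in those 3 cases EDEM1 alone of the list was called. HSPA5, the main ER chaperone BiP, was at 204, 141 and 120 CPM in the probe libraries and 121, 128 and 113 CPM in the photocaged libraries, 0.36 ± 0.14 (adjusted p = 0.135), and it passed the threshold without probe replicate 3, with values of 0.11 to 0.52 over the omissions. XBP1, a transcription factor of the same response, gave 0.12 ± 0.06 (adjusted p = 0.317).

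Several chaperones were lower with the probe. Among all tested genes 1.02% fell, and all probe libraries lay below all photocaged ones for 13.4%. In the list of HSF1-driven chaperones 8 of 30 members fell and none rose, neither in DESeq2 nor at an unadjusted p under 0.05, with a median log2 fold change of -0.18 against -0.01 for all tested genes. The 30 values ran from -1.92 to 1.74, 27 of them negative and 3 positive. DNAJA1, a partner of HSP70, lies on chromosome 9 (33025211 to 33039907, plus strand) and was at 169, 168 and 182 CPM in the probe libraries, 243, 229 and 249 CPM in the photocaged libraries, and 263, 254 and 255 CPM in the DMSO libraries. The probe libraries are below all others, with a log2 fold change of -0.47 ± 0.08 (adjusted p = 0.00112) that stayed between -0.51 and -0.45 over the omissions. HSPA8, the constitutive HSP70 of the cytosol, was at 1182, 1253 and 1240 CPM in the probe libraries, 1464, 1457 and 1618 CPM in the photocaged libraries, and 1585, 1651 and 1597 CPM in the DMSO libraries, -0.30 ± 0.07 (adjusted p = 0.0121). HSPE1, the partner of the mitochondrial chaperonin HSP60, was at 63.9, 76.7 and 75.7 CPM in the probe libraries, 95.8, 88.9 and 97.3 CPM in the photocaged libraries, and 119, 129 and 117 CPM in the DMSO libraries, -0.38 ± 0.10 (adjusted p = 0.0246). In both genes the probe libraries lie below all photocaged and DMSO libraries. STIP1, which links HSP70 and HSP90, changed by -0.30 ± 0.07 (adjusted p = 0.0122), while HSPD1, HSP60 itself, gave -0.15 ± 0.08 (adjusted p = 0.271).

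HSPA1B, the heat-inducible HSP70, showed the largest change among the called chaperones, with 160, 130 and 224 CPM in the probe libraries, 435, 382 and 337 CPM in the photocaged libraries, and 440, 334 and 341 CPM in the DMSO libraries. The groups of probe and photocaged libraries do not overlap, and the log2 fold change was -1.17 ± 0.26 (adjusted p = 0.0112), but HSPA1B is nearly identical to HSPA1A, so that the split of their reads is uncertain. Whether the pair changed as a whole was not tested, so the size of the HSPA1B change is uncertain too. The HSPA1B call ended without probe replicate 1, probe replicate 2 or photocaged replicate 1, with -1.41 to -1.002 over the omissions. The count of 8 chaperones was 1 without probe replicate 1, 3 without probe replicate 2, 7 without probe replicate 3, 2 without photocaged replicate 1, 6 without photocaged replicate 2 and 2 without photocaged replicate 3, and it was 5 with GC and length trends removed. The calls of HSPA8 and HSPE1 ended without probe replicate 1 or photocaged replicate 3, that of HSPE1 also without photocaged replicate 1, and that of STIP1 without any of these or probe replicate 2. Their values over the omissions ran from -0.33 to -0.25 for HSPA8, -0.43 to -0.30 for HSPE1 and -0.37 to -0.25 for STIP1. The STIP1 call also ended with GC and length trends removed (-0.20).

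Of the chaperonin CCT, which folds actin and tubulin, 3 of 8 subunits fell and none rose, neither in DESeq2 nor at an unadjusted p under 0.05, with a median of -0.18. The share of all tested genes that fell was 1.02%. CCT4 was at 388, 372 and 385 CPM in the probe libraries, 462, 459 and 483 CPM in the photocaged libraries, and 448, 445 and 458 CPM in the DMSO libraries. The probe libraries are below all others, and the log2 fold change was -0.29 ± 0.05 (adjusted p = 0.00134), -0.31 to -0.27 over the omissions. Of 33 proteasome subunits 3 fell and none rose, neither in DESeq2 nor at an unadjusted p under 0.05, with a median of -0.21; without probe replicate 3, the library that stands apart, 10 fell, and without photocaged replicate 3 or probe replicate 1 only 1 did. PSMD1, a scaffold of the regulatory particle, was at 152, 153 and 136 CPM in the probe libraries and 178, 186 and 187 CPM in the photocaged libraries, -0.32 ± 0.06 (adjusted p = 0.00521). PSMD14, its deubiquitinase, changed by -0.34 ± 0.08 (adjusted p = 0.0135), a call that ended without probe replicate 1 or photocaged replicate 3, with -0.37 to -0.31 over the omissions. The CCT count was 1 without photocaged replicate 1, photocaged replicate 3, probe replicate 1 or probe replicate 2, 2 without photocaged replicate 2 and 3 without probe replicate 3, and the proteasome count was 2 without probe replicate 2 or photocaged replicate 1.

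With the 6 libraries fitted alone, edgeR called fewer members of these groups: 1 synthesis gene, 0 transport genes, 0 tRNA synthetases, 2 HSF1 chaperones, 0 CCT subunits and 1 proteasome subunit. Its total there was 171 of 19352 tested genes. The CCT4 and PSMD1 calls ended in that fit.

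**Figure D2:**
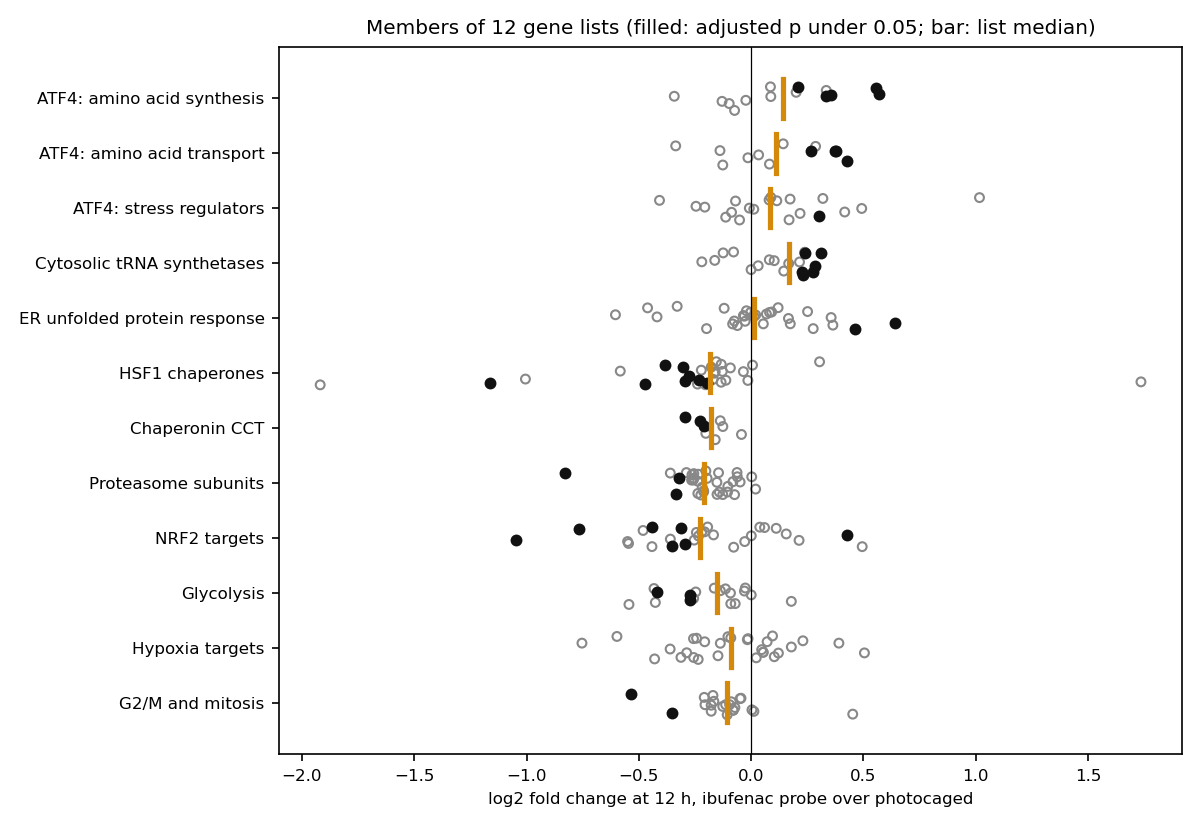
Log2 fold change at 12 h of ibufenac probe over photocaged, on the horizontal axis, for each tested member of 12 gene lists; filled points passed an adjusted p of 0.05, open points did not, and the bar is the median of the list. The called members of the ATF4-driven and tRNA synthetase lists lie right of 0, and those of the HSF1, CCT, proteasome and glycolysis lists lie left of it.

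Among NRF2 targets, 6 of 28 tested members were lower with the probe and 1, SLC7A11, was higher, with a median log2 fold change of -0.23. The shares of all tested genes were 1.02% lower and 0.904% higher. HMOX1, the heme-degrading enzyme that NRF2 induces, lies on chromosome 22 (35380361 to 35394214, plus strand) and was at 28.7, 31.4 and 32.1 CPM in the probe libraries, 55.7, 55.3 and 46.0 CPM in the photocaged libraries, and 27.9, 17.4 and 26.6 CPM in the DMSO libraries. The photocaged libraries are the high ones, and the probe libraries lie above all DMSO libraries by a small margin. The log2 fold change of probe over photocaged was -0.77 ± 0.15 (adjusted p = 0.00368), between -0.85 and -0.72 over the omissions. Relative to DMSO, HMOX1 gave 0.36 ± 0.15 with the probe (adjusted p = 0.185) and rose by 1.13 ± 0.15 with the photocaged form (adjusted p = 3.3e-06).

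TXNRD1, which reduces thioredoxin, was at 150, 169 and 155 CPM in the probe libraries, 198, 193 and 191 CPM in the photocaged libraries, and 128, 138 and 139 CPM in the DMSO libraries. The probe libraries lie between the other groups without overlap, and the log2 fold change was -0.30 ± 0.06 (adjusted p = 0.00612). FTL, the light chain of the iron store ferritin, was at 328, 310 and 359 CPM in the probe libraries, 430, 404 and 437 CPM in the photocaged libraries, and 336, 350 and 336 CPM in the DMSO libraries, -0.35 ± 0.07 (adjusted p = 0.00853). Here the probe libraries overlap the DMSO libraries and lie below the photocaged ones. PIR, an iron-binding nuclear protein, was at 3.79, 2.76 and 5.02 CPM in the probe libraries and 7.996, 6.995 and 8.97 CPM in the photocaged libraries, -1.04 ± 0.24 (adjusted p = 0.0122). PRDX1, a peroxiredoxin that removes hydrogen peroxide, was at 216, 246 and 258 CPM in the probe libraries, 318, 306 and 354 CPM in the photocaged libraries, and 332, 330 and 352 CPM in the DMSO libraries, -0.44 ± 0.07 (adjusted p = 0.000495). For this gene the probe libraries are the low ones, while photocaged and DMSO libraries overlap. GCLM, a subunit of the enzyme that starts glutathione synthesis, was at 38.3, 38.3 and 31.3 CPM in the probe libraries and 40.2, 44.8 and 40.6 CPM in the photocaged libraries, -0.22 ± 0.10 (adjusted p = 0.233).

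The count of 6 lower NRF2 targets was 3 without probe replicate 1, 3 without probe replicate 2, 8 without probe replicate 3, 2 without photocaged replicate 1, 5 without photocaged replicate 2 and 3 without photocaged replicate 3. The TXNRD1 call ended without probe replicate 1 or photocaged replicate 1 (-0.35 to -0.26 over the omissions). The FTL call ended without probe replicate 2, photocaged replicate 1 or photocaged replicate 3 (-0.41 to -0.30), and with GC and length trends removed (-0.27), a fit in which 4 NRF2 targets were lower. With the 6 libraries fitted alone, HMOX1 was the 1 NRF2 target called. The PIR call ended without probe replicate 1 or 2 or photocaged replicate 1 or 3 (-1.28 to -0.86).

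**Figure D3:**
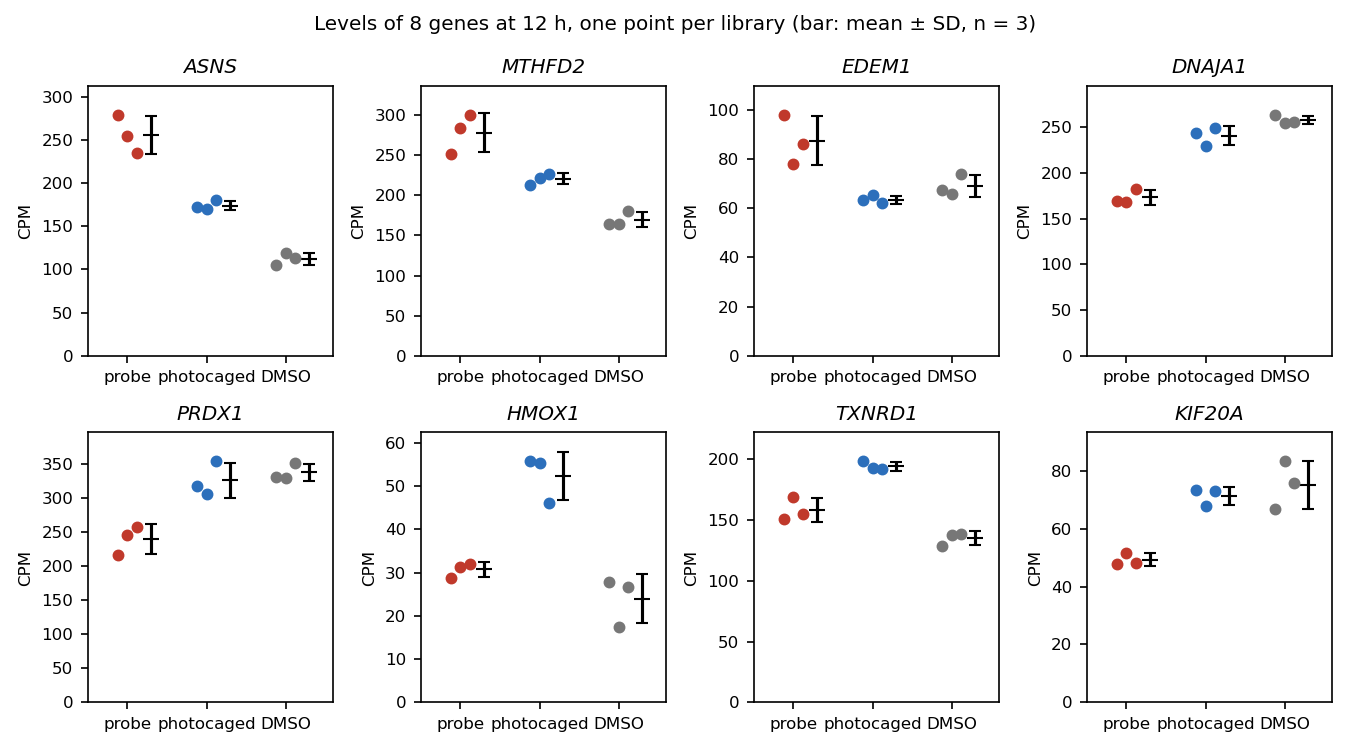
CPM of 8 genes at 12 h in the 3 ibufenac probe, 3 ibufenac photocaged and 3 DMSO libraries; each point is a library and the bar beside it the mean ± SD. ASNS and MTHFD2 step down from probe to photocaged to DMSO, DNAJA1, PRDX1 and KIF20A are low with the probe alone, and HMOX1 and TXNRD1 are highest with the photocaged form.

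A few mitotic genes were lower with the probe, as were 1.02% of all tested genes. All probe libraries lay below all photocaged ones for 13.4% of all tested genes. In bulk RNA, fewer cells of a kind and less RNA per cell cannot be told apart. Of 21 genes of G2/M and mitosis 2 fell and none rose, with a median of -0.11; 1 member had an unadjusted p under 0.05 in the higher direction, and DESeq2 called none higher. KIF20A, a kinesin of cytokinesis, was at 47.6, 51.7 and 48.3 CPM in the probe libraries, 73.4, 67.6 and 72.8 CPM in the photocaged libraries, and 66.7, 83.2 and 75.7 CPM in the DMSO libraries. The probe libraries are below all others, with a log2 fold change of -0.54 ± 0.09 (adjusted p = 0.00112), -0.57 to -0.51 over the omissions. CCNB1, the cyclin that starts mitosis, was at 124, 124 and 125 CPM in the probe libraries, 156, 154 and 167 CPM in the photocaged libraries, and 162, 146 and 155 CPM in the DMSO libraries, -0.35 ± 0.07 (adjusted p = 0.00368). PIMREG, a regulator of the metaphase to anaphase transition, was at 14.9, 13.0 and 12.6 CPM in the probe libraries and 26.8, 24.1 and 23.9 CPM in the photocaged libraries, -0.88 ± 0.16 (adjusted p = 0.00354). For CCNB1 and PIMREG too, all probe libraries are below all photocaged ones. None of 22 genes of G1/S and DNA replication was called in edgeR or DESeq2. An unadjusted p under 0.05 was found for 7, with 6 in the lower direction, against 18.1% of all tested genes. All 17 tested replication-dependent histone genes had a negative log2 fold change, with a median of -0.51. Of them 1 fell, and 9 had an unadjusted p under 0.05 in the lower direction. Without probe replicate 1 or probe replicate 2 the histone list had 0 calls.

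Among metabolic lists, 3 of 18 glycolysis genes fell, against 1.02% of all tested genes, with a median of -0.15. TPI1, triosephosphate isomerase, gave 508, 552 and 651 CPM in the probe libraries, 749, 714 and 830 CPM in the photocaged libraries, and 855, 810 and 856 CPM in the DMSO libraries, -0.42 ± 0.10 (adjusted p = 0.0122). ENO1, enolase, changed by -0.27 ± 0.07 (adjusted p = 0.0333). No glycolysis gene was called with GC and length trends removed, nor without probe replicate 1, probe replicate 2, photocaged replicate 1 or photocaged replicate 3, where TPI1 and ENO1 kept their direction (TPI1 -0.53 to -0.34 and ENO1 -0.33 to -0.22 over the omissions), and without probe replicate 3 5 were called. LDHA, lactate dehydrogenase, gave -0.14 ± 0.14 (95% interval -0.41 to 0.14) and PGK1 -0.09 ± 0.11 (-0.32 to 0.14) between the forms, although both were lower than DMSO in each form: LDHA was at 372, 426 and 395 CPM in the probe libraries, 402, 397 and 513 CPM in the photocaged libraries, and 710, 732 and 742 CPM in the DMSO libraries. The same holds for the list of hypoxia targets: edgeR and DESeq2 called 0 of 29 between the forms. There 1 had an unadjusted p under 0.05, against 18.1% of all tested genes. Relative to DMSO 14 of the hypoxia targets were lower with the probe (2.67% of all tested genes were lower there) and 8 with the photocaged form (1.11% of all tested genes).

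Genes tied to the drug's known target and handling did not pass the test. PTGS1 and PTGS2, the cyclooxygenases that ibufenac inhibits, were at 0.67, 0.35 and 0 CPM and at 1.64, 1.71 and 2.02 CPM in the probe libraries, against 0.59, 0.81 and 0.67 CPM and 2.47, 1.73 and 1.86 CPM in the photocaged libraries. These levels are too low to bound a change closely: the 95% interval of the log2 fold change was -2.93 to 0.91 for PTGS1 and -0.87 to 0.52 for PTGS2. Of 13 tested genes of acyl glucuronide and xenobiotic metabolism edgeR and DESeq2 called none, and 3 had an unadjusted p under 0.05, against 18.1% of all tested genes. CPT1A, which admits fatty acids to the mitochondrion, gave -0.20 ± 0.10 (adjusted p = 0.263). RARB, a retinoic acid receptor, was at 4.97, 4.47 and 5.21 CPM in the probe libraries, 3.29, 2.72 and 4.34 CPM in the photocaged libraries, and 11.5, 12.0 and 13.0 CPM in the DMSO libraries, 0.49 ± 0.25 between the forms (adjusted p = 0.278).

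Apart from these groups, the largest increases included DCT, a melanin synthesis enzyme at a low level, with 3.23, 3.35 and 2.85 CPM in the probe libraries and 0.76, 1.04 and 1.05 CPM in the photocaged libraries, 1.71 ± 0.40 (adjusted p = 0.0159). NEAT1, the noncoding RNA that builds nuclear paraspeckles, was at 702, 462 and 355 CPM in the probe libraries, 271, 315 and 200 CPM in the photocaged libraries, and 346, 378 and 365 CPM in the DMSO libraries, 0.95 ± 0.19 (adjusted p = 0.0046). Probe replicate 1 is far above the others, and 1 probe library lies within the DMSO values. PCLO, piccolo, a scaffold protein, was at 99.2, 79.5 and 60.6 CPM in the probe libraries and 45.9, 50.5 and 40.8 CPM in the photocaged libraries, 0.80 ± 0.15 (adjusted p = 0.00368), and MIR29B2CHG, a microRNA host transcript, changed by 0.81 ± 0.17 (adjusted p = 0.00853). Long noncoding RNAs made up 12.6% of the higher genes and 2.02% of the lower ones, against 17.4% of all tested genes. Protein-coding genes made up 82.3% of the higher and 97.5% of the lower genes, against 74.5% of all tested genes. Without probe replicate 1 the calls of DCT, NEAT1, PCLO and MIR29B2CHG ended, with 1.58, 0.64, 0.62 and 0.57 as the lowest values over the omissions. Photocaged replicate 3 ended those of DCT, NEAT1 and MIR29B2CHG, photocaged replicate 1 those of DCT and MIR29B2CHG, and probe replicate 2 that of DCT. The 13 transcripts of the mitochondrial genome had a median log2 fold change of 1.17 and none passed the test in edgeR, while DESeq2 called 3 and 10 passed an unadjusted p of 0.05. Among all tested genes DESeq2 called 4.75%, and 18.1% passed an unadjusted p of 0.05. The median of the mitochondrial transcripts was 0.56 without probe replicate 1, the library with the highest mitochondrial share. edgeR called 3 of them without probe replicate 3, 2 with the 6 libraries alone, 8 with the 9 libraries at 12 h and 11 with no filter on low counts.

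The 12 largest decreases among genes of at least 1 CPM ran from -2.29 to -1.19 on the log2 scale. Among them was COL1A1, a collagen chain made by fibroblasts, with 1.64, 1.35 and 0.79 CPM in the probe libraries, 4.94, 4.97 and 2.91 CPM in the photocaged libraries, and 3.51, 3.13 and 2.35 CPM in the DMSO libraries. The probe libraries are below all photocaged and DMSO libraries, and the log2 fold change was -1.76 ± 0.37 (adjusted p = 0.00733), a call that ended without photocaged replicate 1, with -2.00 to -1.50 over the omissions. The 7 fibroblast markers summed to 3.02 to 3.997 CPM in the probe libraries, 6.73 to 7.52 CPM in the photocaged libraries and 5.72 to 7.67 CPM in the DMSO libraries, and 3 of the 7 could be tested. COL1A1 is 1 of the 7 and the largest part of the photocaged sums, so the sums largely repeat its values. COL3A1 was at 1.02, 1.88 and 1.43 CPM in the probe libraries and 1.47, 1.97 and 2.72 CPM in the photocaged libraries, which overlap. The part of fibroblasts in the COL1A1 result was not tested. SLC39A10, a zinc importer, was at 77.4, 87.5 and 78.8 CPM in the probe libraries and 107, 108 and 131 CPM in the photocaged libraries, -0.51 ± 0.10 (adjusted p = 0.00521), and its call ended without photocaged replicate 3 (-0.56 to -0.40 over the omissions). AHRR, the repressor of the aryl hydrocarbon receptor, was at 31.9, 23.6 and 31.2 CPM in the probe libraries, 46.2, 41.7 and 39.5 CPM in the photocaged libraries, and 31.0, 29.5 and 26.0 CPM in the DMSO libraries, -0.55 ± 0.15 (adjusted p = 0.034), with the photocaged libraries above both other groups. Its call held only without probe replicate 3 (-0.63 to -0.43 over the omissions).

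In all, 21 of 43 gene lists held a called member. The other 22 lists, with 345 tested entries, held 17 entries that DESeq2 called (4.93%, against 4.75% of all tested genes) and 74 with an unadjusted p under 0.05 (21.4%, against 18.1% of all tested genes).

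The form comparison at 12 h lies between a larger one at 6 h and a nearly empty one at 18 h. With ibufenac, 1428 genes (7.38%) differed between probe and photocaged libraries at 6 h, 373 at 12 h and 1 (0.00517%) at 18 h. That gene, named after its value was seen, was CTH, which makes cysteine from cystathionine. DESeq2 called 16 genes at 18 h, and 1180 passed an unadjusted p of 0.05 in edgeR. Tests of the change in the form difference itself called 1639 genes (8.47%; 3.74% higher and 4.73% lower) for 12 h minus 6 h. For 12 h minus 18 h they called 17 (0.0878%; 0.031% higher and 0.0568% lower). The comparisons at the 3 times share no libraries.

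Many of the ATF4 regulators had a larger form difference at 6 h than at 12 h. In their list 10 of 20 members were higher with the probe at 6 h (2.53% of all tested genes were), 1 at 12 h and 0 at 18 h, and for 9 the difference at 12 h was lower than that at 6 h (4.73% of all tested genes were). TRIB3 had a log2 fold change of 1.247 ± 0.09 at 6 h, 0.22 ± 0.09 at 12 h and 0.10 ± 0.09 at 18 h, and the difference of 12 h minus 6 h was -1.03 ± 0.13 (adjusted p = 2.38e-06). DDIT3 gave 0.69 ± 0.12 at 6 h and -0.11 ± 0.12 at 12 h (difference -0.81 ± 0.17, adjusted p = 0.00463), and GDF15 gave 1.05 ± 0.27 and -0.25 ± 0.27 (difference -1.30 ± 0.38, adjusted p = 0.0272). Of the synthesis genes 6 were higher with the probe at 6 h, 5 at 12 h and 0 at 18 h, and of the tRNA synthetases 3 at 6 h, 6 at 12 h and 0 at 18 h. In the test of 12 h minus 6 h, 2 of the 14 synthesis genes were lower and none was higher, and edgeR called none of the 19 tRNA synthetases. ASNS had 0.32 ± 0.07 at 6 h, 0.56 ± 0.07 at 12 h and 0.08 ± 0.07 at 18 h; its form difference at 12 h exceeded that at 18 h by 0.48 ± 0.10 (adjusted p = 0.0299), while that over 6 h was 0.23 ± 0.10 (adjusted p = 0.134). SLC7A11 gave 0.07 ± 0.10 at 6 h and -0.27 ± 0.10 at 18 h, and its difference of 12 h minus 18 h was 0.69 ± 0.14 (adjusted p = 0.0299). SLC1A4 and SLC38A1 differed more at 12 h than at 6 h, by 0.49 ± 0.12 (adjusted p = 0.00999) and 0.31 ± 0.08 (adjusted p = 0.0153).

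Members of the HSF1 and NRF2 lists were lower with the probe at 6 h too. In the HSF1 list 10 of 30 members were lower with the probe at 6 h (4.85% of all tested genes were), 8 at 12 h and 0 at 18 h, and in the NRF2 list 9, 6 and 0 of 28. DNAJA1 had -0.67 ± 0.08 at 6 h, -0.47 ± 0.08 at 12 h and -0.07 ± 0.08 at 18 h, without a called difference between 12 h and either other time (adjusted p = 0.285 against 6 h and 0.126 against 18 h). HSPA8 had -0.62 ± 0.07 at 6 h, larger than its -0.30 ± 0.07 at 12 h (difference 0.32 ± 0.10, adjusted p = 0.0326). HMOX1 had -1.37 ± 0.15 at 6 h, -0.77 ± 0.15 at 12 h and -0.26 ± 0.15 at 18 h, and the difference of 0.60 ± 0.21 between 12 h and 6 h did not pass the threshold (adjusted p = 0.0607). TXNRD1 had -0.74 ± 0.06 at 6 h and -0.30 ± 0.06 at 12 h (difference 0.45 ± 0.09, adjusted p = 0.00213). CCNB1, CCT4 and PIMREG went another way, with -0.01 ± 0.07, 0.03 ± 0.05 and 0.10 ± 0.16 at 6 h, and their differences of 12 h minus 6 h were called (-0.34, -0.32 and -0.98 on the log2 scale). TACC1, a centrosome protein, was lower with the probe at 6 h (-0.46 ± 0.06) and higher at 12 h (0.30 ± 0.06), with 72.7, 72.6 and 71.4 CPM in the probe libraries and 56.0, 62.0 and 57.9 CPM in the photocaged libraries at 12 h (adjusted p = 0.00612). That call ended without photocaged replicate 1 (0.27 to 0.34 over the omissions). MAP1B, a microtubule protein, likewise had -0.43 ± 0.11 at 6 h and 0.43 ± 0.11 at 12 h (adjusted p = 0.0244). That call ended without probe replicate 1, photocaged replicate 1 or photocaged replicate 3 (0.33 to 0.48).

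**Figure D4:**
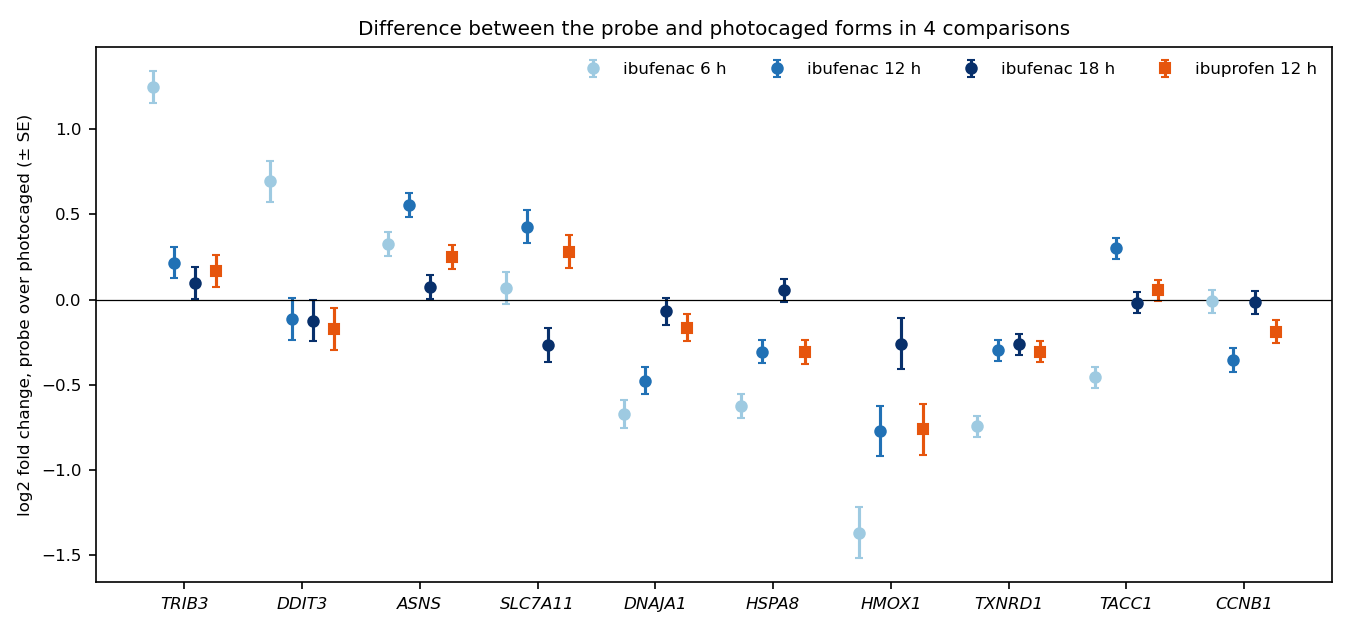
Log2 fold change ± SE of probe over photocaged, on the vertical axis, for 10 genes with ibufenac at 6, 12 and 18 h and with ibuprofen at 12 h (3 libraries per group). TRIB3 and DDIT3 are highest at 6 h, ASNS and SLC7A11 at 12 h, and TACC1 has opposite signs at 6 h and 12 h.

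For ibuprofen, which carries an added methyl group on the carbon next to ibufenac's acid, the same comparison at 12 h called 0 genes in edgeR, with 1050 at an unadjusted p under 0.05 and 18 in DESeq2. The test of the difference between the drugs in the form effect at 12 h also called 0 genes, with 1605 at an unadjusted p under 0.05 and 5 in DESeq2. The ibuprofen libraries, none of which entered the ibufenac comparison, gave the same sign for 304 of the 373 genes (81.5%), against 55.4% of all tested genes. With ibufenac at other times the share was lower, 209 of 373 (56%) at 6 h, against 45.9% of all tested genes, and 216 of 373 (57.9%) at 18 h, against 48.3%; at 6 h 38 were called with the same sign and 10 with the opposite one. In the ibuprofen comparison, the median log2 fold change was 0.10 for the 175 higher genes and -0.09 for the 198 lower ones. The genes were picked for their differences with ibufenac, so smaller values in other libraries do not show a weaker effect of ibuprofen. HMOX1 gave -0.76 ± 0.15 with ibuprofen (adjusted p = 0.0518) against -0.77 ± 0.15 with ibufenac, a difference of -0.01 (95% interval -0.43 to 0.41), and TXNRD1 gave -0.30 ± 0.06 with both (interval of the difference -0.17 to 0.18). ASNS gave 0.25 ± 0.07 with ibuprofen, and its difference between the drugs was 0.31 ± 0.10 (adjusted p = 0.529; interval 0.11 to 0.51). DNAJA1 gave -0.17 ± 0.08 with ibuprofen and a difference of -0.31 (adjusted p = 0.544; interval -0.53 to -0.08). Both ASNS and DNAJA1 are among the genes called with ibufenac, and their intervals do not allow for that choice.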

How the data were processed

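The members and gene lists were chosen with earlier results of these data known. RNA of HEK293T cells was sequenced as total RNA after Ribozero depletion with stranded TruSeq libraries, per the labels. The authors deposited expected counts per Ensembl gene for 63 libraries in 21 groups of 3, not normalized; 22.6% of values at or above 1 are fractional, so all were rounded. Not given in the sources used here: aligner, counter, build and counting strand. A deposited FPKM table was not used. Library totals ran from 12.1 M to 38.4 M counts, which limits the precision for genes of low level. Symbols came from current names (57754 genes) or GENCODE release 29 (462), and 120 genes have none; coordinates are those of GENCODE on GRCh38.

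Low genes were dropped by filterByExpr (minimum count 10). With edgeR 4.0.16 in R 4.3.3, a TMM-scaled quasi-likelihood fit took in all 63 libraries (42 residual degrees of freedom), and 9 comparisons were tested two-sided with Benjamini-Hochberg adjustment at 0.05 over 19352 genes. Rose, fell, higher and lower of a tested gene mean past that threshold; fold changes are log2 of probe over photocaged with their SE, and intervals are 95%. With 3 libraries against 3, an exact permutation test of 1 gene could not go below 0.1. The model was also run on simulated counts with planted changes and the same spread of a gene in all groups. That simulation held no unequal spread between groups and no shifts in GC or mitochondrial share, so it cannot speak to these. Alternatives were DESeq2 1.42.0, RLE factors, other filters, fewer libraries, a replicate block, offsets for GC and length, and omission of each library. The named genes are the largest called changes with a mean of at least 1 CPM, up to 5 called members per list by p, a fixed set of stress and drug-target genes, and the leading genes of the differences between times. Genes with processed pseudogenes, such as FTL, TPI1, ENO1, HSPE1 and PRDX1, may share reads with them. None of the 6 pairs of libraries compared within the groups agreed within counting noise. All columns carry the same batch label, so no batch split was possible. A result for 1 gene is not reported here.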

Additional observations from a re-analysis of the deposited data

Results flagged for a closer look

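These results are given because the difference between ibufenac probe and photocaged libraries itself changed with time, by a test of that change. For 12 h minus 6 h the log2 change was negative for TRIB3 (-1.03), GDF15 (-1.30), DDIT3 (-0.81), AHRR (-0.97), PIMREG (-0.98), COL1A1 (-1.80), CCNB1 (-0.34), CCT4 (-0.32) and PSMD14 (-0.33). It was positive for MIR29B2CHG (1.35), CREB3L2 (0.91), MAP1B (0.86), TACC1 (0.76), GCLM (0.73), SLC1A4 (0.49), TXNRD1 (0.45), EDEM1 (0.42), HSPA8 (0.32) and SLC38A1 (0.31). For 12 h minus 18 h it was -1.15 for PIMREG, 0.69 for SLC7A11 and 0.48 for ASNS.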

How the results depend on the processing

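The 12 h count of 373 genes (175 higher, 198 lower) became 920 in DESeq2 (539 higher, 381 lower), 1420 with no filter on low counts (320 higher, 1100 lower), 630 at a minimum count of 50 (366 higher), 171 with the 6 libraries alone (39 higher) and 662 with the 9 libraries at 12 h (404 lower). It was 547 with GC and length trends removed (330 higher). Of the 373 genes, 85 were among those called with the 6 libraries alone, 273 with the 9 libraries at 12 h and 299 with no filter on low counts. DESeq2 called 368 of them. Omission of 1 library gave 44 to 872 genes, 20 to 400 higher and 24 to 472 lower. None of the 373 genes reversed its sign in an alternative that tested it, and 14 passed the threshold in all 15. At a minimum count of 50, 370 of the 373 were tested. The alternatives reuse libraries in which the genes were chosen, so kept signs are little support. DESeq2 called 16 genes at 18 h and 18 for ibuprofen at 12 h, against 1 and 0. The cause of these moves was not tested. Of the genes named, GDF15 changed sign with GC and length trends removed (0.098) and PGK1 without photocaged replicate 3 (0.0039, against -0.161 as the lowest over the omissions); neither was called. Same-numbered probe and photocaged libraries did not deviate together (r of -0.018, -0.012 and 0.016). With 3 libraries per group, these values cannot exclude that the numbers pair them. The replicate block gave 357 genes. With the 6 libraries alone it gave 380 (92 higher), against 171 without the block. Depth limits the low genes: PTGS1, at under 1 CPM, has an interval several log2 units wide.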
